A study of Mus musculus with 6 samples.

Results

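The proteasome genes were taken as every gene whose symbol begins with Psma, Psmb, Psmc, Psmd, Psme, Psmf or Psmg followed by a digit, which gave 49 of the 17419 genes in the table. Psmb8, Psmb9, Psmb10, Psme1 and Psme2, which interferon-gamma is known to induce, were described apart from the other 44. The symbols alone decided which genes belong to the family, and no measured value entered that step. The family itself was chosen with earlier results of these data known. RNA had been sequenced in bulk from entheseal fibroblasts, the connective tissue cells of the site where tendon joins bone, of SKG mice, which carry a mutation of Zap70 and develop autoimmune arthritis. There were 3 samples labelled diseased, titled NTS, and 3 labelled un-diseased, titled UN, and both groups came from SKG mice. The labels explain neither NTS nor UN and give no agent, age or sex, and the groups follow the treatment label. Nothing in them tells if replicates were taken from different mice or dishes, so the p-values here speak of the variation among these 6 samples alone, and that variation may be technical.

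The proteasome degrades proteins tagged with ubiquitin. Its core particle, the 20S, stacks rings of alpha subunits, which gate the entrance, around rings of beta subunits, some of which cut the peptide chain. The regulatory particle, the 19S, binds the tagged protein, unfolds it with a ring of ATPases and feeds it into the core. In cells exposed to interferon-gamma the cutting subunits encoded by Psmb5, Psmb6 and Psmb7 are replaced in newly built cores by those of Psmb8, Psmb9 and Psmb10, which makes the immunoproteasome and favours peptides that bind class I molecules. Psme1 and Psme2 encode the alpha and beta subunits of PA28, a cap that opens the core without ATP.

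Psmb9 and Psmb8 lie in the major histocompatibility complex beside Tap1 and Tap2, which encode the transporter that carries peptides into the endoplasmic reticulum. On GRCm38, Psmb9 runs from 34182030 to 34187330 of chromosome 17, Tap1 from 34187556 to 34197225, Psmb8 from 34198195 to 34201454 and Tap2 from 34204479 to 34216321. The 4 genes span 34292 bases, and 225 bases separate the starts of Psmb9 and Tap1, which are read in opposite directions. RefSeq promoter windows of GRCm38.p6, each with 250 bases before and 50 after the start, were searched on both strands for GAAA and GAAA with any 2 bases between them (the core of an interferon-stimulated response element, ISRE), TTCNNNGAA (a gamma-activated site), TGACNNNGC (the core of an antioxidant response element, which NRF1 and NRF2 bind) and GGGCGG (a GC box, which SP1 binds). The 5 stretches shown carry a match in an inducible gene, or in a constitutive gene whose product an inducible one replaces. Capitals mark the match, and each stretch is written along the strand of its gene; the one of Psme1 matches the ISRE core on the opposite strand.
Psmb8 (chr17:34198087-34198116, plus strand, TTCNNNGAA): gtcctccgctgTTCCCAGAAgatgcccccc
Psmb9 (chr17:34187368-34187397, minus strand, GGGCGG): tgcgcgatgatgGGGCGGggcctcagtctg
Psme1 (chr14:55578493-55578522, plus strand, ISRE core): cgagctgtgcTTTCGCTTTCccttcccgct
Psmb5 (chr14:54618024-54618053, minus strand, TGACNNNGC): acgtgaagttgTGACGTCGCggcgttgcca
Psmb6 (chr11:70525337-70525366, plus strand, TGACNNNGC): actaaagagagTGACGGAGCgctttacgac

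GENCODE M21, whose transcripts can start farther upstream than those of RefSeq, places the stretches of Psmb8, Psmb9 and Psme1 in exons of these genes and those of Psmb5 and Psmb6 in no exon. The RefSeq span of Psmb6, however, starts at 70525324, upstream of its stretch. The table held 44 windows for 41 of the 49 genes and has no entry for Psmb7. The ISRE core was found in 5 of the 44 windows (Psmb3, Psmd4, Psmd9, Psme1 and Psmg4) and in 3.44% of all 32851 windows. TTCNNNGAA was found in 3 (Psmb8, Psmd2 and Psmg1) against 8.30% of all windows, and TGACNNNGC in 6 (Psmb5, Psmb6, Psmc6, Psmd12, Psmd9 and Psme4) against 12.4%. GGGCGG was found in 24 windows of 23 genes against 35.7% of all windows. A match is a run of letters and was not tested for binding.

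Total counts lay between 16720605 and 18290870 per sample, and the proteasome genes took 0.210% to 0.244% of them in diseased samples and 0.207% to 0.235% in un-diseased samples. Of the 49 genes, 47 had enough counts to be tested, 5 inducible and 42 others. The 12 fibroblast markers, among them Col1a1 and Pdgfra, summed to 120358 to 151677 CPM (counts scaled by library size with TMM factors) in diseased samples and 92230 to 128286 in un-diseased samples, so the labelled cell type had its markers. Markers of other cells were present too. The 18 macrophage markers summed to 396.3, 575.1 and 223.6 CPM in diseased replicates 1, 2 and 3, against 127.7, 267.2 and 48.2 CPM in un-diseased replicates 1, 2 and 3. Replicate numbers paired the samples, as described with the processing, and diseased replicate 3 stood apart from the other samples in the genes described next.

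Psmb8 averaged 44.5 CPM in diseased and 23.0 CPM in un-diseased samples, and Psmb9 15.1 CPM in diseased and 7.19 CPM in un-diseased samples. The means of the other inducible genes were closer to each other, at 21.5 CPM in diseased and 16.5 CPM in un-diseased samples for Psmb10, 42.1 CPM in diseased and 38.6 CPM in un-diseased samples for Psme1, and 50.2 CPM in diseased and 41.0 CPM in un-diseased samples for Psme2. All 5 were highest in diseased replicate 3. None of the 5 passed edgeR's quasi-likelihood test at an adjusted p of 0.05, nor did any of the other 42, while 3.73% of all 13264 genes tested passed (1.61% higher and 2.13% lower in diseased samples). The count of 0 comes with 4 genes of the 47 at an unadjusted p under 0.05 (Psmb8, Psmb9, Psmd5 and Psmg2), against 27.8% of all genes. With the replicate number as a block, 4 of the 47 passed, Psmb8, Psmb9 and Psmd5 higher and Psme3 lower in diseased samples, against 23.9% of all genes (10.5% higher and 13.3% lower). With DESeq2, Psmb8 alone passed, against 11.4% of all genes (4.79% higher and 6.65% lower). With the block and the first pair left out, Psmb8 and Psme3 passed, against 19.3% of all genes; with the second left out Psmb8 and Psmb9 passed, against 15.6%; without replicate pair 3 none of the 47 passed, against 7.53%. Over the 47 genes together, the share called was thus below that of all genes in each of these 3 tests. Of the 5 inducible genes alone, 0, 2 and 1 passed in edgeR without and with the block and in DESeq2. The other 42 had 0 calls without the block and with DESeq2, and with the block 1 higher and 1 lower. The shares of all genes were 3.73%, 23.9% and 11.4%.

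Psmb8 (gene 16913) encodes the inducible subunit beta5i, also called LMP7, which cuts after hydrophobic residues in place of Psmb5. It had 33.8, 30.6 and 69.1 CPM in diseased replicates 1, 2 and 3, against 26.1, 19.97 and 22.9 CPM in un-diseased replicates 1, 2 and 3. Every diseased sample lay above every un-diseased one, and diseased replicate 3 lay farthest from the rest. The means were 44.5 ± 21.3 CPM in diseased and 23.0 ± 3.07 CPM in un-diseased samples (mean ± SD of 3 samples), a 1.94-fold ratio, with a log2 fold change of 0.95 (SE 0.31, 95% interval 0.24 to 1.67) and an adjusted p of 0.113 in edgeR's quasi-likelihood test. With the block the log2 fold change was 0.86 (SE 0.21) and the edgeR adjusted p 0.0236, and with DESeq2 the adjusted p was 0.0307. Within replicates 1, 2 and 3 the log2 CPM of the diseased sample exceeded that of the un-diseased one by 0.37, 0.61 and 1.59. Without replicate pair 3 the blocked log2 fold change was 0.49 and its edgeR adjusted p 0.0752. The authors' deposited values gave Psmb8 −0.94 as its log2 ratio, which runs un-diseased over diseased, and a q-value of 0.0377. Gm20496, an antisense gene, overlaps 2139 bases of Psmb8 in GENCODE. In these bulk samples, more cells of a type and more RNA per cell cannot be told apart.

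Psmb9 (gene 16912) encodes beta1i, or LMP2, which replaces the Psmb6 product and with it a cut after acidic residues. It had 12.1, 7.04 and 26.0 CPM in diseased replicates 1 to 3, against 8.76, 5.64 and 7.19 CPM in un-diseased replicates 1 to 3. Diseased replicate 2 lay below 2 of the un-diseased samples, so the groups overlapped, while each diseased sample exceeded the un-diseased one of its own number. The means were 15.1 ± 9.82 CPM in diseased and 7.19 ± 1.56 CPM in un-diseased samples (mean ± SD of 3 samples), with a log2 fold change of 1.06 (SE 0.44, 95% interval 0.03 to 2.10) and an edgeR adjusted p of 0.170. With the block it was 0.91 (SE 0.28) with an edgeR adjusted p of 0.0475, and DESeq2 gave an adjusted p of 0.0918. Leaving out pair 1, 2 or 3 moved the blocked edgeR adjusted p to 0.0524, 0.0113 or 0.185, and without replicate pair 3 the log2 fold change was 0.40.

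Psmb10 (gene 19171) encodes beta2i, or MECL-1, the inducible counterpart of Psmb7, and lies on chromosome 8 from 105935728 to 105938392. It had 16.2, 15.3 and 32.9 CPM in diseased replicates 1, 2 and 3, against 18.1, 17.1 and 14.3 CPM in un-diseased replicates 1, 2 and 3. Diseased replicate 3 was the highest of the 6, and the other diseased samples lay within the un-diseased range. The log2 fold change was 0.38 (SE 0.30, 95% interval −0.31 to 1.07) with an edgeR adjusted p of 0.415, and 0.30 with the block (edgeR adjusted p 0.412). Without diseased replicate 3 it was −0.07, so its sign rests on that sample. The antisense gene Gm16156 overlaps 2710 bases of Psmb10.

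The PA28 genes lie near each other on chromosome 14, Psme1 (gene 19186) from 55578494 to 55581527 and Psme2 (gene 19188) from 55587440 to 55591101. Psme1 had 34.4, 35.6 and 56.2 CPM in diseased replicates 1 to 3, against 40.3, 39.1 and 36.3 CPM in un-diseased replicates 1 to 3. Diseased replicate 3 lay above and the other diseased samples below all un-diseased samples. The log2 fold change was 0.13 (SE 0.19, 95% interval −0.32 to 0.57; edgeR adjusted p 0.687), and −0.14 without diseased replicate 3. Psme2 had 40.6, 43.6 and 66.4 CPM in diseased replicates 1 to 3, against 40.8, 41.6 and 40.6 CPM in un-diseased replicates 1 to 3. The un-diseased samples were almost level (41.0 ± 0.542 CPM), and of the diseased ones (50.2 ± 14.1 CPM; ± SD of 3 samples) only replicate 3 stood well above them. The log2 fold change was 0.29 (SE 0.18, 95% interval −0.14 to 0.72; edgeR adjusted p 0.324), and 0.04 without diseased replicate 3. Psme2b, a copy of Psme2 on chromosome 11, is 99.3% identical to it over 717 coding bases, so the split of reads between them is uncertain. Psme2b was too low to be tested, at 0.391, 0.249 and 1.13 CPM in diseased and 0.0521, 0.313 and 0 CPM in un-diseased replicates 1 to 3.

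**Figure D1:**
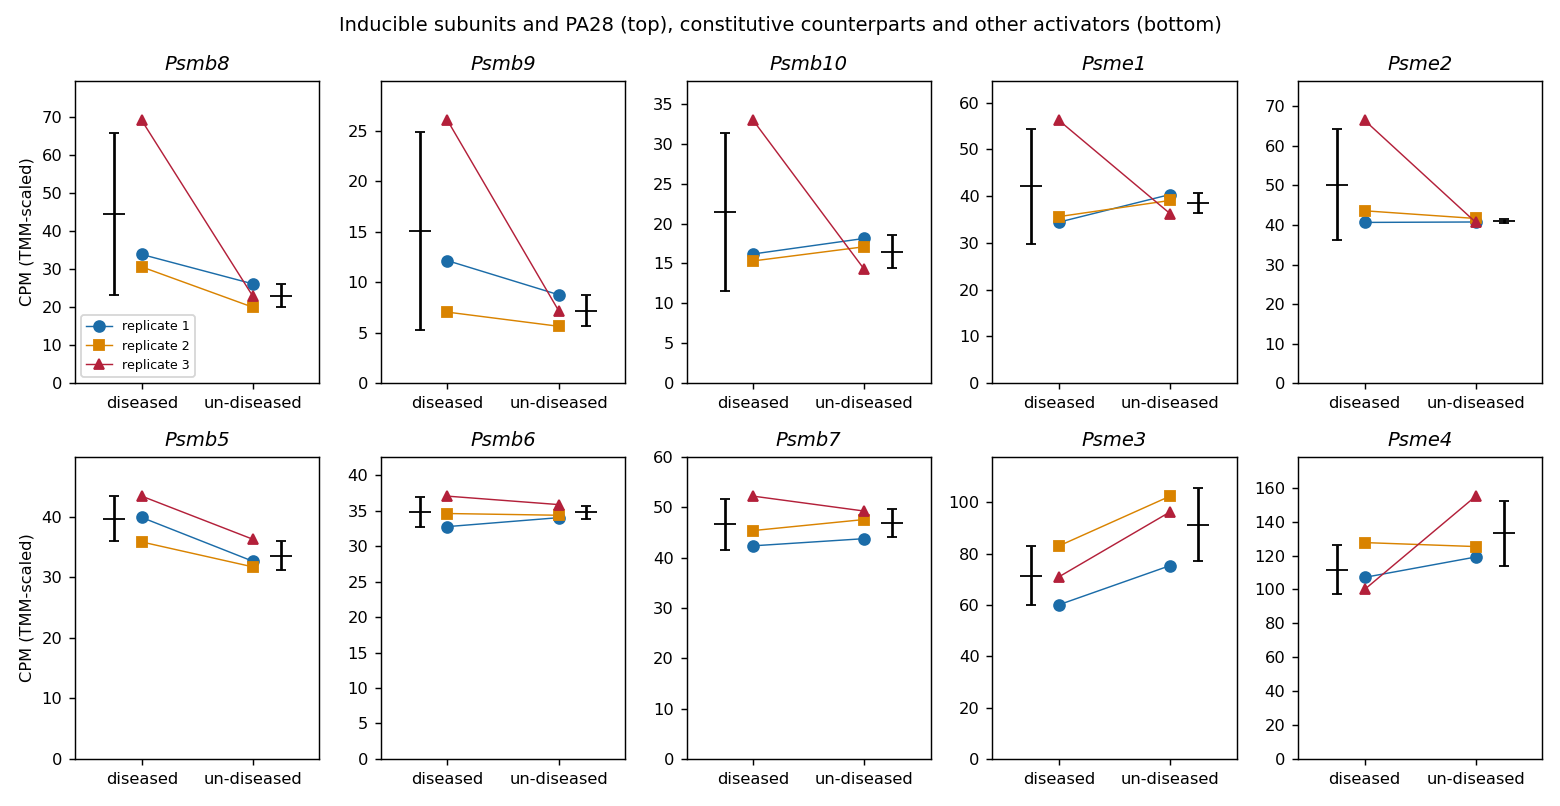
CPM (linear axis) of the 5 inducible genes and of 5 constitutive genes, with diseased samples left of un-diseased ones; points are samples, thin lines join samples with the same replicate number, and the black dash and bar give the mean ± SD of 3 samples. Diseased replicate 3 is the highest sample for all 5 inducible genes, at 69.1 CPM for Psmb8, whereas Psmb6 lies between 32.8 and 37.1 CPM in all 6 samples.

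Diseased replicate 3 was the highest of the 6 samples for 5 of the 5 inducible genes, for 14 of the other 42 (33.3%) and for 15.8% of all genes tested. The median difference of the 5 genes in log2 CPM, diseased minus un-diseased, was −0.00, 0.07 and 1.21 within replicates 1, 2 and 3. Over the other 42 genes these medians were −0.04, 0.09 and 0.03, and over all genes tested −0.00, 0.02 and 0.02. The median difference of the macrophage markers was 1.48, 1.10 and 2.81 within replicates 1, 2 and 3, also largest in pair 3, and that of the pan-leukocyte markers 1.72, 0.91 and 1.55. By level, diseased replicate 3 had the lowest sum of the diseased samples (223.6 CPM). All 17 tested macrophage markers had a positive log2 fold change (median 1.405). With the block all 17 rose, as did all 10 pan-leukocyte markers, against 10.5% of all genes. Without the block 0 of either list passed edgeR's test, against 3.73% of all genes. DESeq2 called 4 of the macrophage and 0 of the pan-leukocyte markers, against 11.4% of all genes. Diseased samples lay above un-diseased ones without overlap for 6 of the 17 and 0 of the 10, against 16.5% of all genes. Fcgr1 was at 0 in un-diseased replicate 3. The 10 pan-leukocyte markers summed to 114.7, 221.4 and 77.1 CPM in diseased replicates 1 to 3, against 34.8, 127.7 and 25.9 CPM in un-diseased replicates 1 to 3. The 8 T and NK cell markers in the table summed to 3.62, 9.53 and 11.7 CPM in diseased replicates 1 to 3, against 4.38, 11.2 and 9.17 CPM in un-diseased replicates 1 to 3, with Klrb1c at 0 in some samples. The 11 neutrophil markers summed to 59.5 to 175.3 CPM in diseased and 8.68 to 221.8 CPM in un-diseased samples, with Ly6g at 0 in some. B cell markers summed to under 1 CPM in every sample, with Cd79b and Ms4a1 at 0 in some, and the 10 endothelial markers to 51.1 to 70.7 CPM in diseased and 63.0 to 92.7 CPM in un-diseased samples. The part of these cells in the levels of the inducible genes was not tested.

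Each inducible subunit was then set against the constitutive one it replaces, as a ratio of counts within a sample, which does not depend on library scaling. Psmb8 over Psmb5 was 0.848, 0.853 and 1.59 in diseased replicates 1 to 3, against 0.799, 0.630 and 0.630 in un-diseased replicates 1 to 3. Every diseased ratio was above every un-diseased one, though in the first pair the log2 difference was only 0.09, against 0.44 and 1.34 in the others. The groups differed by 0.62 on the log2 scale with an exact two-sided permutation p of 0.1, the smallest that 3 samples against 3 can give (0.3 adjusted over the 3 ratios). Psmb9 over Psmb6 was 0.371, 0.204 and 0.702 in diseased samples, against 0.258, 0.165 and 0.201 in un-diseased samples. Diseased replicate 2 fell inside the un-diseased range, and the log2 difference of 0.88 had an exact permutation p of 0.2 (adjusted 0.3). Psmb10 over Psmb7 was 0.383, 0.338 and 0.630 in diseased samples, against 0.415, 0.360 and 0.290 in un-diseased samples. Its log2 difference was 0.31 (exact permutation p = 0.5, adjusted 0.5), and without pair 3 −0.10. Without that pair the log2 differences of the other ratios were 0.26 for Psmb8 over Psmb5 and 0.42 for Psmb9 over Psmb6.

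Levels of different genes were compared per kilobase of coding sequence. Psmb9 stood at 22.9 ± 14.9 CPM per kilobase in diseased and 10.9 ± 2.37 in un-diseased samples (mean ± SD of 3 samples), below Psmb6 at 48.8 ± 3.02 in diseased and 48.7 ± 1.38 in un-diseased samples. Psmb10 stood at 26.2 ± 12.1 CPM per kilobase in diseased and 20.1 ± 2.45 in un-diseased samples, below Psmb7 at 56.1 ± 6.09 in diseased and 56.4 ± 3.38 in un-diseased samples. The means of Psmb9 and Psmb10 were thus below those of their counterparts in both groups, also per kilobase of transcript. For Psmb8 and Psmb5 the order in diseased samples depended on the length used and on replicate 3. Per kilobase of coding sequence Psmb8 stood at 53.7 ± 25.8 and Psmb5 at 50.2 ± 4.78 CPM in diseased samples, whereas per kilobase of transcript Psmb8 stood at 27.3 ± 13.1 and Psmb5 at 52.3 ± 4.98 CPM. By coding length Psmb8 exceeded Psmb5 only in diseased replicate 3 (83.4 against 54.8 CPM per kilobase), and lay below it in diseased replicates 1 (40.9 against 50.4) and 2 (36.9 against 45.3). In un-diseased samples the mean of Psmb8 was below that of Psmb5 by both lengths, at 27.8 against 42.4 CPM per kilobase of coding sequence and 14.1 against 44.2 per kilobase of transcript. The coding sequences of the pairs, aligned base by base, were 68.9% identical for Psmb8 and Psmb5, 67.3% for Psmb9 and Psmb6 and 64.6% for Psmb10 and Psmb7.

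The other 42 genes differed little between the groups. Their log2 fold changes ran from −0.36 to 0.60 with a median of 0.02 and an SD of 0.18, and 24 were positive and 18 negative. Over all 13264 genes the median was also 0.02, and the SD was 0.54. The 95% interval lay within 1.5-fold in either direction for 33 of the 42, and for 5124 of all 13264 genes. The intervals that reached beyond 1.5-fold were those of Psmd5, Psmd10, Psmd11, Psmg2, Psmg3, Psmg4, Psme3, Psme4 and Psmc3ip. The median SE was 0.11 for the 42 and 0.17 for all genes. The groups did not overlap for 3 of the 47 genes that were higher in diseased samples (Psmb8, Psmc5 and Psmg2) and 2 that were lower (Psmc6 and Psmb4), against 16.5% and 15.4% of all genes and 31.9% in both directions together.

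**Figure D2:**
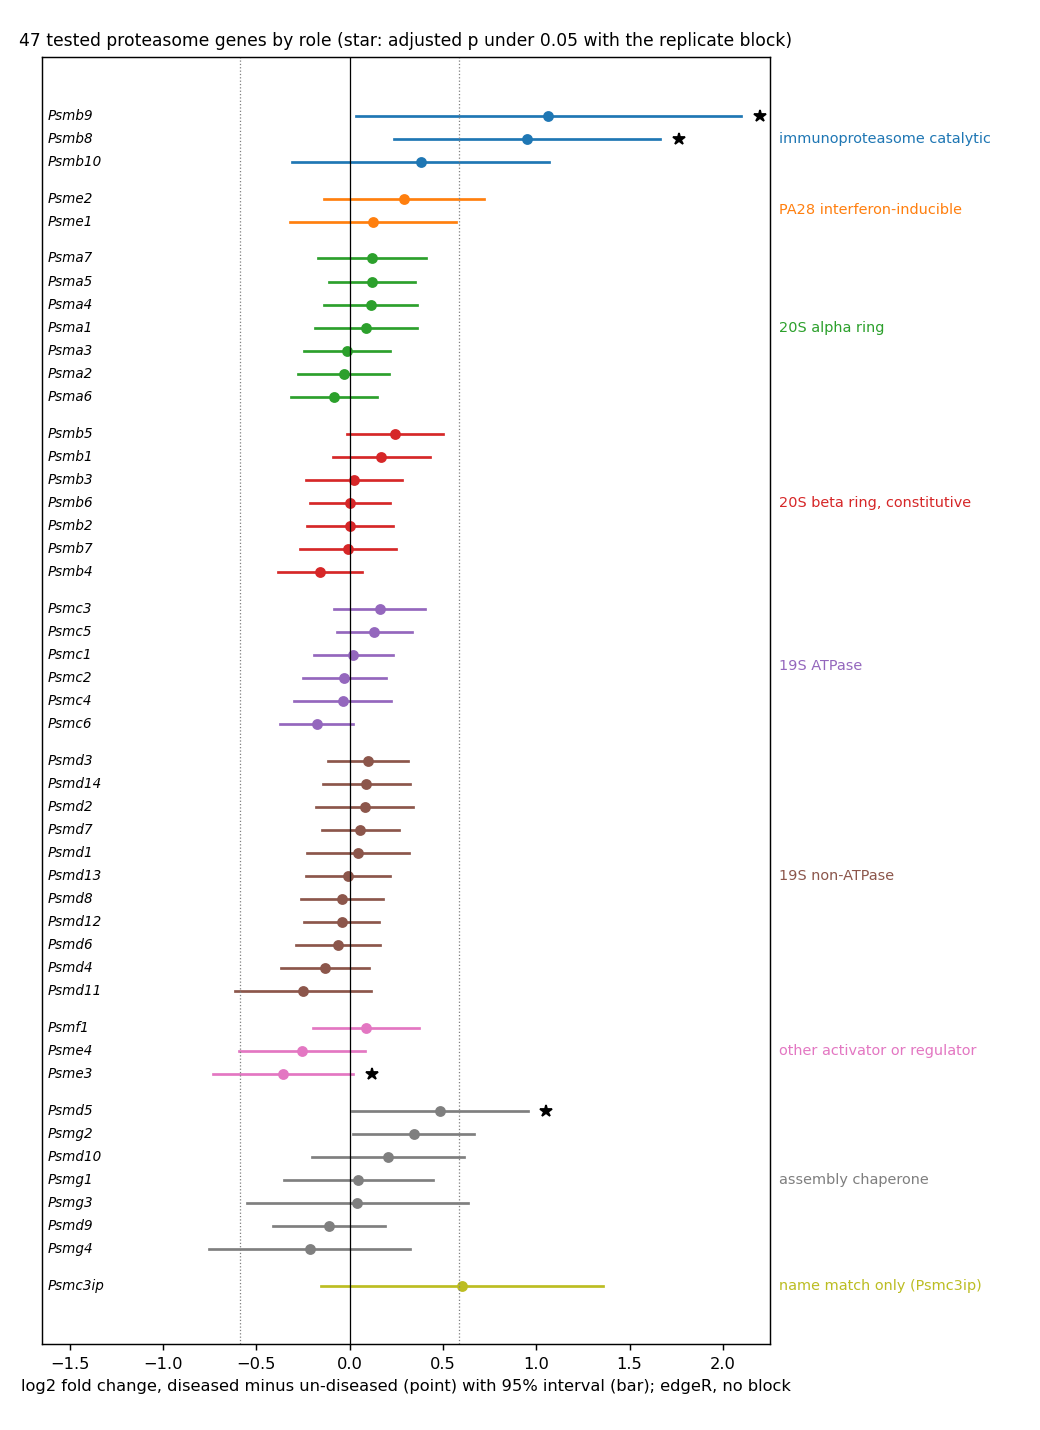
Log2 fold change, diseased minus un-diseased, of the 47 tested genes in edgeR's quasi-likelihood test, ordered by role; points are estimates, bars their 95% intervals, dotted lines 1.5-fold in either direction, and stars mark an adjusted p under 0.05 with the replicate block. Most genes of the core and regulatory particle lie between the dotted lines with their whole interval, while Psmb8 and Psmb9 lie to the right at 0.95 and 1.06.

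Among the constitutive cutting subunits, Psmb5 encodes beta5, the subunit with chymotrypsin-like activity. It had 39.9, 35.9 and 43.4 CPM in diseased replicates 1 to 3, against 32.7, 31.7 and 36.3 CPM in un-diseased replicates 1 to 3. Each diseased sample exceeded its partner, with overlap only between diseased replicate 2 and un-diseased replicate 3, and the log2 fold change was 0.24 (SE 0.11, 95% interval −0.01 to 0.50; edgeR adjusted p 0.197, with the block 0.0920). Psmb6, which encodes the caspase-like beta1, had 32.8, 34.6 and 37.1 CPM in diseased and 34.0, 34.4 and 35.9 CPM in un-diseased replicates 1 to 3. Its log2 fold change was 0.00 (SE 0.09, 95% interval −0.21 to 0.22), and the groups overlapped throughout. Psmb7, which encodes the trypsin-like beta2, had 42.4, 45.4 and 52.2 CPM in diseased and 43.8, 47.6 and 49.3 CPM in un-diseased replicates 1 to 3. Its groups overlapped as well, with a log2 fold change of −0.01 (SE 0.11, 95% interval −0.26 to 0.25), and the sign of both Psmb6 and Psmb7 changed with the scaling.

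The structural beta subunits Psmb1, Psmb2, Psmb3 and Psmb4 close the inner rings. Psmb4 had 66.0, 75.5 and 73.3 CPM in diseased replicates 1 to 3, against 82.5, 75.9 and 81.4 CPM in un-diseased replicates 1 to 3. All diseased samples lay below all un-diseased ones, the nearest pair by less than 1 CPM, and the log2 fold change was −0.16 (SE 0.10; edgeR adjusted p 0.307). Over the 7 constitutive beta genes the median log2 fold change was 0.00, from −0.16 to 0.24.

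The alpha ring is built from the products of Psma1 to Psma7. Psma5 had 50.4, 54.9 and 59.5 CPM in diseased replicates 1 to 3, against 51.5, 48.0 and 52.2 CPM in un-diseased replicates 1 to 3. The diseased values reached higher but overlapped the others, and the log2 fold change was 0.12 (SE 0.10; edgeR adjusted p 0.448). The 7 tested alpha genes had a median log2 fold change of 0.09, from −0.08 to 0.12, and all 7 intervals stayed within 1.5-fold. Diseased replicate 3 was the highest of the 6 samples for 6 of the 7 alpha and 5 of the 7 constitutive beta genes, but for 0 of the 11 non-ATPase genes of the regulatory particle. Psma8, the alpha subunit known from testis, was too low to be tested, at 0.27 to 0.39 CPM in diseased and 0.25 to 0.36 CPM in un-diseased samples.

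The base of the regulatory particle holds 6 ATPases, the products of Psmc1 to Psmc6, which unfold the substrate. Psmc6 had 57.9, 59.2 and 61.1 CPM in diseased replicates 1 to 3, against 64.7, 67.4 and 69.4 CPM in un-diseased replicates 1 to 3. The groups were narrow and did not overlap, and the log2 fold change of −0.18 (SE 0.08, 95% interval −0.37 to 0.02) had an edgeR adjusted p of 0.218. Psmc5 had 45.4, 44.1 and 43.7 CPM in diseased replicates 1 to 3, against 41.3, 38.7 and 41.6 CPM in un-diseased replicates 1 to 3. It was separated in the other direction, with a log2 fold change of 0.13 (SE 0.09; edgeR adjusted p 0.339). Psmc3 had 80.5, 74.6 and 88.9 CPM in diseased replicates 1 to 3, against 75.2, 67.6 and 75.5 CPM in un-diseased replicates 1 to 3, with overlap and a log2 fold change of 0.16 (SE 0.11; edgeR adjusted p 0.338). All 6 ATPase intervals stayed within 1.5-fold.

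The 11 non-ATPase genes include Psmd4, whose product binds ubiquitin chains, and Psmd14, whose product removes them. Psmd2, a scaffold of the base, had the highest mean CPM of the family, 193.8 ± 16.6 in diseased and 183.2 ± 9.66 in un-diseased samples (mean ± SD of 3 samples). Psmd11, a scaffold of the lid, had 46.5, 60.9 and 52.9 CPM in diseased replicates 1 to 3, against 51.4, 71.6 and 67.9 CPM in un-diseased replicates 1 to 3. Each diseased sample was below its partner while the groups overlapped, and the log2 fold change was −0.25 (SE 0.16; edgeR adjusted p 0.318, with the block 0.0874). The 11 genes had a median log2 fold change of −0.01, from −0.25 to 0.10, and 10 of the 11 intervals stayed within 1.5-fold.

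Psmd5, Psmd9, Psmd10 and Psmg1 to Psmg4 encode chaperones that help to assemble the particles and leave before they are complete, Psmd5 on the base of the 19S and Psmg2 on the alpha ring. Psmd5 had 18.98, 13.6 and 17.9 CPM in diseased replicates 1 to 3, against 14.0, 9.08 and 13.01 CPM in un-diseased replicates 1 to 3. The groups overlapped, since diseased replicate 2 lay below un-diseased replicate 1, but within pairs the log2 differences were close to each other, at 0.44, 0.58 and 0.46. Its log2 fold change was 0.48 (SE 0.20, 95% interval 0.01 to 0.95) with an edgeR adjusted p of 0.172, and 0.49 (SE 0.12) with the block, where the edgeR adjusted p was 0.0211. Left with only 2 pairs, its blocked edgeR adjusted p was 0.0564, 0.0899 or 0.0916. Cutal, on the opposite strand, overlaps 573 bases of Psmd5 in GENCODE, and whether counting used the strand is not given in the sources used here.

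Psmg2 had 12.3, 12.5 and 11.9 CPM in diseased replicates 1 to 3, against 10.6, 10.1 and 8.24 CPM in un-diseased replicates 1 to 3. The groups did not overlap, with a log2 fold change of 0.34 (SE 0.14, 95% interval 0.02 to 0.67), an edgeR adjusted p of 0.162 and, with the block, of 0.0847. The 7 chaperone genes had few counts, from 2.80 CPM for Psmg3 to 17.0 CPM for Psmd9 in diseased samples, and their median log2 fold change was 0.05, from −0.21 to 0.48.

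Of the other activators, Psme3 had lower values in diseased samples and fell with the block. It encodes PA28 gamma, a nuclear cap of the core. Psme3 had 60.1, 83.0 and 71.0 CPM in diseased replicates 1 to 3, against 75.3, 102.4 and 96.2 CPM in un-diseased replicates 1 to 3. Each diseased sample was below its partner, by 0.33, 0.30 and 0.44 on the log2 scale, though the groups overlapped. The log2 fold change was −0.36 (SE 0.16, 95% interval −0.73 to 0.02) with an edgeR adjusted p of 0.197, and −0.36 (SE 0.09) with the block, where the edgeR adjusted p was 0.0244. Leaving out pair 1, 2 or 3 gave a blocked edgeR adjusted p of 0.0419, 0.0672 or 0.122. Psme4, which encodes the large nuclear activator PA200, had 107.1, 127.6 and 100.04 CPM in diseased replicates 1 to 3, against 119.1, 125.3 and 155.0 CPM in un-diseased replicates 1 to 3. The groups overlapped, the second pair was level, and the log2 fold change was −0.25 (SE 0.14; edgeR adjusted p 0.280). Psmf1, which encodes the inhibitor PI31, averaged 17.9 ± 0.778 CPM in diseased and 16.8 ± 1.85 CPM in un-diseased samples (mean ± SD of 3 samples). Psmc3ip entered by its symbol only, since its product serves meiotic recombination. Its level was low, at 1.57, 1.56 and 1.35 CPM in diseased replicates 1 to 3, against 1.35, 0.751 and 0.806 CPM in un-diseased replicates 1 to 3, with a log2 fold change of 0.60 (SE 0.32; edgeR adjusted p 0.260).

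**Figure D3:**
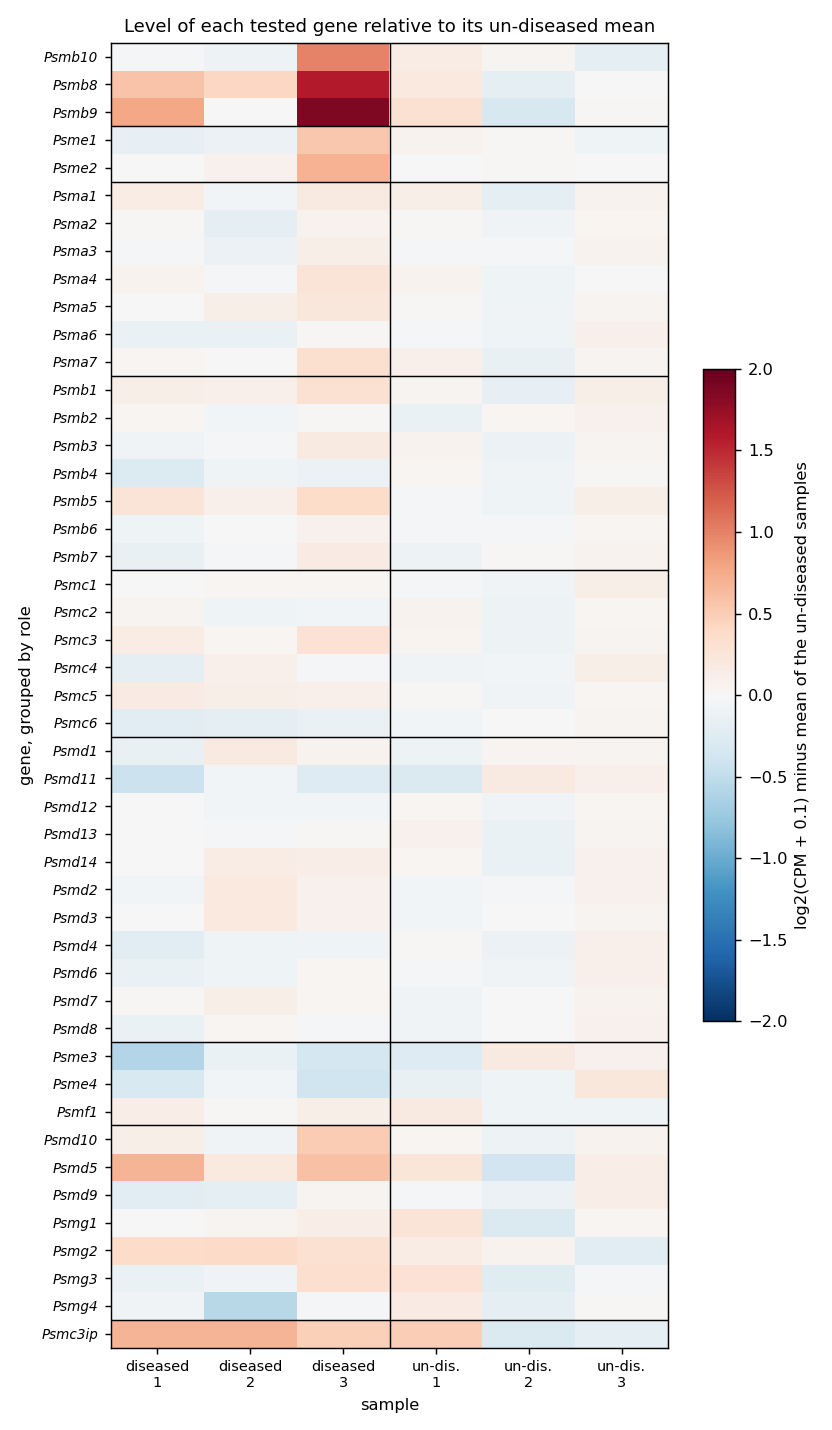
Log2(CPM + 0.1) of the 47 tested genes in each of the 6 samples, minus the mean of the 3 un-diseased samples of that gene; columns are samples with diseased ones on the left, rows are genes ordered by role, and the colour scale runs from −2 to 2. The strongest colour is that of Psmb8, Psmb9 and Psmb10 in diseased replicate 3, whereas the rows of the ATPase and non-ATPase genes stay near the middle of the scale.

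Genes that work with the proteasome were examined as lists. Of 16 tested partners of the proteasome (ubiquitin receptors, deubiquitinases and adaptors), 0 passed edgeR's test without the block, against 3.73% of all genes. The median log2 fold change of the 16 was −0.05. With the block 0 rose and 2 fell, Ecpas and Zfand5, a share near the 13.3% of all genes that were lower. DESeq2 called only Ecpas, as lower, against 6.65% of all genes. With the block and pair 1, 2 or 3 left out, 2, 1 or 0 fell, while 19.3%, 15.6% or 7.53% of all genes were called in either direction. Ecpas, whose product tethers the proteasome to membranes, had 109.2, 111.6 and 104.9 CPM in diseased replicates 1 to 3, against 127.6, 139.5 and 156.8 CPM in un-diseased replicates 1 to 3. Its groups did not overlap (log2 fold change −0.38, edgeR adjusted p 0.0916, with the block 0.0341). Zfand5, a stimulator of the proteasome, had 138.2, 254.8 and 201.7 CPM in diseased replicates 1 to 3, against 242.8, 314.9 and 333.5 CPM in un-diseased replicates 1 to 3. Its log2 fold change was −0.58 with an edgeR adjusted p of 0.158, and −0.61 with the block, where the adjusted p was 0.0126.

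NRF1, encoded by Nfe2l1, is the factor that raises proteasome genes when the proteasome is inhibited. Of 10 genes for its processing and partners, 0 passed edgeR's test without the block, against 3.73% of all genes. The median log2 fold change of the 10 was −0.10. Nfe2l1 itself averaged 282.8 ± 39.9 CPM in diseased and 310.8 ± 51.0 CPM in un-diseased samples (± SD of 3 samples; edgeR adjusted p 0.610). Vcp, the segregase that extracts NRF1 from the membrane, had the highest mean of that list, 436.2 ± 57.3 CPM in the diseased group and 391.0 ± 17.5 CPM in the un-diseased group. With the block only Nfe2l2, which encodes the related factor NRF2, passed, against 23.9% of all genes (13.3% lower). It had 100.8, 160.1 and 122.9 CPM in diseased replicates 1 to 3, against 151.5, 247.9 and 253.2 CPM in un-diseased replicates 1 to 3 (log2 fold change −0.77, edgeR adjusted p 0.110; with the block −0.75, adjusted p 0.00518; DESeq2 adjusted p 0.0244). With the block and pair 1, 2 or 3 left out, 1 of the 10 genes fell each time. Of all genes, 19.3%, 15.6% or 7.53% were then called in either direction. Of 6 ubiquitin and E1 enzyme genes, 0 passed in any of the 3 tests (3.73%, 23.9% and 11.4% of all genes passed in edgeR without and with the block and in DESeq2), with 1 at an unadjusted p under 0.05 in edgeR (27.8% of all genes), and their median was −0.12.

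Most of the 12 genes listed as class I peptide loading act downstream of the immunoproteasome, though not Nlrc5. All 12 had a positive log2 fold change, with a median of 0.55 against 0.02 over all genes tested, and in 9 of the 12 the diseased samples lay above the un-diseased ones without overlap, against 16.5% of all genes. None passed edgeR's test without the block, with 8 at an unadjusted p under 0.05, against 27.8% of all genes. With the block 7 rose (Tap1, Erap1, B2m, Calr, Pdia3, Nlrc5 and H2-K1), against 10.5% of all genes. DESeq2 called 6 as higher, against 4.79%. With the block and pair 1, 2 or 3 left out, 5, 6 or 0 rose, while 19.3%, 15.6% or 7.53% of all genes were called in either direction. H2-D1, a class I heavy chain with the highest mean CPM of the list, had 1554, 1275 and 2168 CPM in diseased replicates 1 to 3, against 1128, 1108 and 981.9 CPM in un-diseased replicates 1 to 3. The groups did not overlap, and the log2 fold change was 0.64 (edgeR adjusted p 0.121, with the block 0.0547). Tap1, the neighbour of Psmb9, had 50.9, 52.1 and 114.6 CPM in diseased replicates 1 to 3, against 38.2, 31.7 and 38.5 CPM in un-diseased replicates 1 to 3 (log2 fold change 1.00, edgeR adjusted p 0.108; with the block 0.90, adjusted p 0.0157). Tap2 had 62.4, 67.5 and 112.3 CPM in diseased replicates 1 to 3, against 59.0, 55.5 and 56.4 CPM in un-diseased replicates 1 to 3 (log2 fold change 0.50, edgeR adjusted p 0.180, with the block 0.0781). In all 4 genes of the chromosome 17 cluster, Psmb9, Tap1, Psmb8 and Tap2, diseased replicate 3 was the highest sample. GENCODE places 212 bases of Tap1 over Psmb9 on the opposite strand, so reads there could be split between them.

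**Figure D4:**
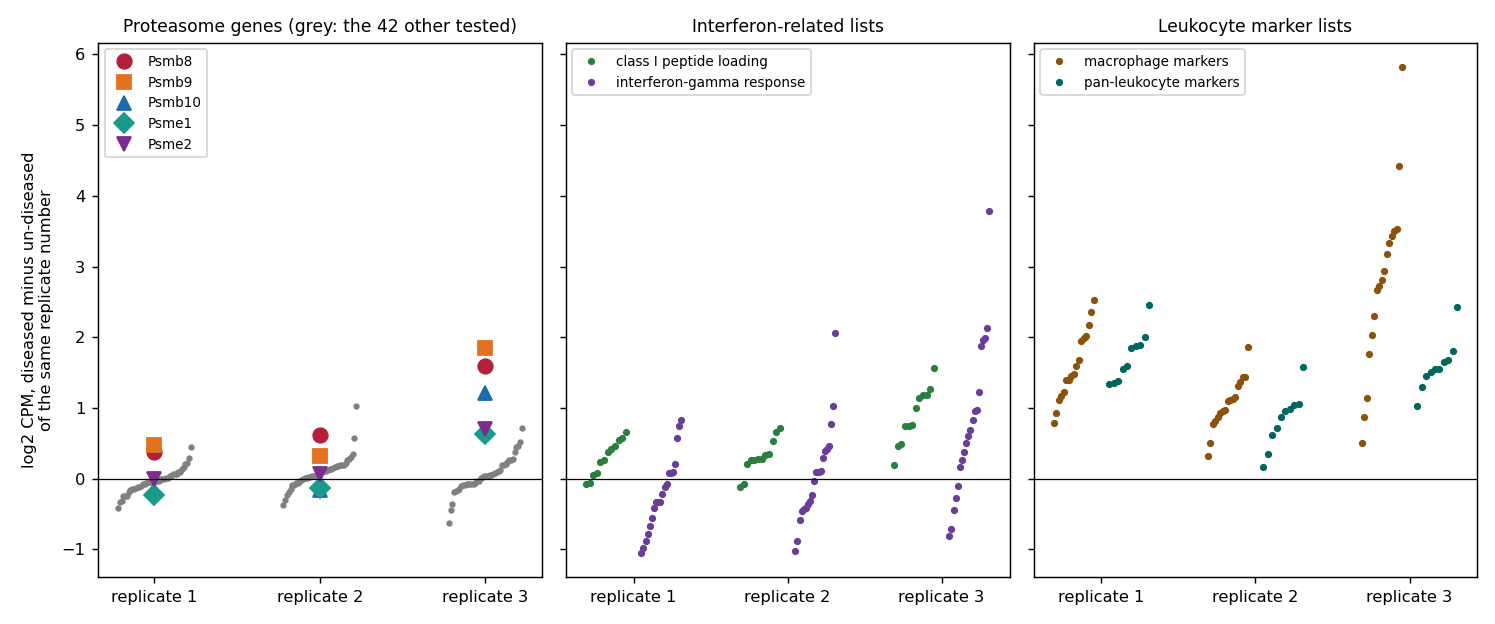
Difference in log2 CPM (0.5 added to each count) between the diseased and the un-diseased sample of the same replicate number, for proteasome genes, class I loading and interferon-gamma genes, and macrophage and pan-leukocyte markers; each marker is 1 gene in 1 pair, and grey marks the 42 other proteasome genes. For Psmb8 the differences are 0.37, 0.61 and 1.59, for Psmb10 −0.16, −0.16 and 1.21, and all 17 macrophage markers lie above 0 in every pair.

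Interferon-gamma acts through a receptor bound to JAK kinases. The 20 genes of its pathway had a median log2 fold change of 0.17, from −0.61 to 1.78, with 14 positive. Without the block 0 passed edgeR's test, with 4 at an unadjusted p under 0.05, against 27.8% of all genes. Diseased samples lay above un-diseased ones without overlap for 3 of the 20 and below them for 0. Over all genes these shares were 16.5% and 15.4%. With the block 2 rose, among them the chemokine gene Cxcl9, and 5 fell, Jak1, Jak2, Socs1, Gbp2 and Gbp5, against 10.5% of all genes higher and 13.3% lower, while DESeq2 called 1, against 11.4%. With the block and pair 1, 2 or 3 left out, 4, 2 or 2 rose and 3, 4 or 2 fell. Of all genes, 19.3%, 15.6% or 7.53% were then called in either direction. Jak1, a kinase bound to the receptor and the gene with the highest mean CPM of the list, had 346.4, 608.9 and 448.0 CPM in diseased replicates 1 to 3, against 463.0, 833.6 and 787.2 CPM in un-diseased replicates 1 to 3 (log2 fold change −0.57, edgeR adjusted p 0.227; with the block −0.56, adjusted p 0.0195). Gbp2, a GTPase gene that interferon-gamma is known to induce, had 57.4, 86.5 and 153.8 CPM in diseased replicates 1 to 3, against 106.1, 159.3 and 166.1 CPM in un-diseased replicates 1 to 3. It was thus lower in each diseased sample than in its partner, also in pair 3, with a log2 fold change of −0.54 (edgeR adjusted p 0.335; with the block −0.62, adjusted p 0.0259). Jak1 and Gbp2 were thus among the 6 of the 20 genes with a negative log2 fold change. Diseased replicate 3 was the highest of the 6 samples for 14 of the 20 genes and for 9 of the 12 class I loading genes, against 15.8% of all genes tested.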

How the data were processed

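Estimated counts of 17419 genes in 6 samples of entheseal fibroblasts had been deposited. The submitters' processing notes name HISAT2 2.0.4, RSEM 1.3.1, DESeq2 1.4.5 and GRCm38 without a role or order. Decimals stood in 9.61% of these values, which were rounded to the nearest whole number. The authors' log2 ratios (un-diseased over diseased), p-values and q-values, deposited alongside, are used only where named. In edgeR 4.0.16 (R 4.3.3), filterByExpr at a least count of 10 kept 13264 genes, TMM scaled the libraries, and the quasi-likelihood test set diseased against un-diseased samples with Benjamini-Hochberg adjustment over all genes tested and a threshold of 0.05. CPM are counts as a share of the TMM-scaled total on the usual CPM scale. The steps were tested on simulated data.

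Samples with the same replicate number in the labels deviated together from their group means (r = 0.487, 0.578 and 0.276 over genes). The highest r with a sample of another number in the other group was 0.137, −0.068 and 0.137 for replicates 1, 2 and 3. The numbers were therefore taken to pair the samples, a pairing that the labels do not state. The test with the number as a block is given wherever it changed a call among the proteasome genes. It is also given for some genes whose call it left unchanged, among them Psmb10, Psmb5 and Psmg2. Samples of 1 group differed beyond sampling noise. Alternatives were RLE and upper-quartile factors, other filters, DESeq2 1.42.0, the block, and leaving out each sample or pair; the count added in the ratios was also varied from 0.5.

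The genes and the 12 lists (137 of 139 entries in the table) were chosen with earlier results of these data known. Named in full by rule were the 5 inducible genes, Psmb5 to Psmb7, Psme3, Psme4, the 8 other members with the smallest unadjusted p, the smallest in each role left, and in each list without a call the gene with the highest mean CPM. Some genes that the rule or the lists hold are not reported here. Tap1, Tap2, Gbp2, Nfe2l1, Nfe2l2, Ecpas, Psmd2, Psmf1 and the genes listed as called with the block were named after their values were seen. In GENCODE M21, 19 of the 49 genes overlap a gene on the opposite strand, among them Psmb8 and Psmb10; the use of strand in counting is not given in the sources used here. Transcript and coding lengths and coding sequences are those of GENCODE, and positions and promoter windows those of RefSeq.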

Additional observations from a re-analysis of the deposited data

How the results depend on the processing

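Without the block, 213 genes were called higher and 282 lower over the whole table. Upper-quartile factors gave 417 higher, limma-voom 215 higher and 286 lower, DESeq2 635 higher and 882 lower, and the replicate block 1397 higher and 1770 lower. Leaving out a sample gave 2 to 354 higher and 3 to 721 lower, the fewest without diseased replicate 3; with the block, leaving out pair 1, 2 or 3 gave 1013, 809 or 426 higher and 1556, 1274 or 583 lower. Of the 42 other proteasome genes, 0 were called in either direction; the replicate block called 1 higher and 1 lower, and with a sample or pair left out 0 were called higher and 0 to 1 lower. Psmb8 passed the threshold with DESeq2 (log2 fold change 0.94, adjusted p 0.0307), with the replicate block (0.86) and with the block without pair 1 (1.11) or 2 (0.98), and was 0.49 to 1.16 with a sample or pair left out. Psmb9 passed with the replicate block (0.91) and with the block without pair 2 (1.16), and was 0.40 to 1.401 with a sample or pair left out. In limma-voom neither Psmb8 (adjusted p 0.135) nor Psmb9 (adjusted p 0.259) passed. Beside Psmb8, Psmb9, Psmd5 and Psme3, the block changed no call among the proteasome genes. Values near 0 turned sign: Psmb6 was −0.011 with RLE factors, −0.011 with DESeq2, −0.00035 with the CPM filter, −0.044 to 0.046 with a sample left out and, with the block, −0.0047 without pair 2 and −0.022 without pair 3. Psmb7 was 0.079 with upper-quartile factors, −0.094 to 0.060 with a sample left out and 0.018 with the block without pair 2. Psmb10 was −0.065 and Psme1 −0.14 without diseased replicate 3, and over all samples or pairs left out they ran from −0.16 to 0.57 and from −0.18 to 0.25. The causes were not tested. Upper-quartile factors moved the median of all genes by 0.08, RLE factors by −0.01. With 3 samples a group, 1 sample can set a group mean.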
